A study of Mus musculus with 12 samples.

Results

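Phenobarbital was given to mice, and its effect on gene expression was compared between hepatocytes and mesenchymal cells isolated from their livers. The quantity described is the difference of effects: the change with phenobarbital in hepatocytes minus the change with phenobarbital in mesenchymal cells, for each gene on the log2 scale. All 12 of the 12 samples of the study enter it, with no selection, in 4 groups of 3. The groups were hepatocytes of water-treated mice, hepatocytes of phenobarbital-treated mice, and mesenchymal cells of each kind of mouse. All mice were male C57BL/6N animals of 12 weeks, which carried no transgene or deletion that the labels name. Treated mice drank phenobarbital at 50 mg/kg per day for 14 days, and control mice drank tap water over the same time. The labels do not give the number of animals behind an array or the way the populations were isolated, and p-values therefore speak only to the spread among these samples, which may be technical. A positive difference means a more positive change in hepatocytes and a negative one a more positive change in mesenchymal cells.

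Phenobarbital is a barbiturate that leads to activation of CAR (Nr1i3), a nuclear receptor of hepatocytes. CAR moves to the nucleus and, with its partner RXR, raises transcription of drug-metabolising enzymes, above all cytochrome P450 genes of the Cyp2b and Cyp2c families. Hepatocytes are the parenchymal cells of the liver that hold most of this machinery, while Kupffer cells, sinusoidal endothelium and stellate cells lie along the blood spaces and hold little of it. A difference of effects asks whether the log2 change with the drug was of the same size in the samples of both populations. It does not tell which cells of a sample held the RNA.

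Labels were set against marker genes. Each of the 6 hepatocyte arrays had a mean over 15 hepatocyte markers between 14.05 and 14.14 on the log2 scale. The 6 mesenchymal arrays lay between 9.46 and 11.36 for the same genes. Macrophage and sinusoidal endothelial markers were high in all 6 mesenchymal arrays, with means of 13.52 to 13.95 over 13 genes and of 12.2 to 12.75 over 15 genes. Stellate and fibroblast markers, the classical mesenchymal ones, had lower means of 7.56 to 8.24 over 13 genes, so the name mesenchymal is used here as the labels give it. In water mice the populations differed in 82.7% of the genes tested (limma, adjusted p under 0.05). In such bulk samples fewer cells of a type and less RNA per cell cannot be told apart.

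No gene passed the test for a difference of effects. In limma, with Benjamini-Hochberg adjustment over the 9031 genes tested and a threshold of 0.05, the share called was 0.00%. The smallest adjusted p was 0.108, for Cyp2b10. At an unadjusted p under 0.05 there were 492 genes (5.45% of those tested), 226 with a higher value in hepatocytes (2.50%) and 266 with a lower one (2.95%). A difference of at least 1 on the log2 scale was found for 14 genes with the higher change in hepatocytes (0.155%) and for 42 with the lower one (0.465%). The median difference over all genes was −0.01, its SD over genes was 0.26 and the median SE was 0.17.

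The effects that enter the difference were of unequal width. The hepatocyte effect had an SD over genes of 0.23 and the mesenchymal effect one of 0.17, with 849 genes (9.40%) against 282 genes (3.12%) at an unadjusted p under 0.05. In limma, 1 gene passed in hepatocytes (0.0111%) and none did in mesenchymal cells (0.00%), where the smallest adjusted p was 0.999. Among the 492 genes with an unadjusted p under 0.05 for the difference, the hepatocyte term was the wider one in 378 (76.8%, against 59.3% of all genes tested). The terms had opposite signs in 425 of them (86.4%, against 48.1%), which a choice by the size of the difference favours. Treated and water arrays did not overlap in hepatocytes for 6.93% (higher) and 7.84% (lower) of all genes tested, and in mesenchymal cells for 4.14% and 3.80%, the background for each statement on overlap below. By its wider term, the set of 492 held 177 genes higher in treated hepatocytes, 201 lower in treated hepatocytes, 65 higher in treated mesenchymal cells and 49 lower in treated mesenchymal cells.

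**Figure D1:**
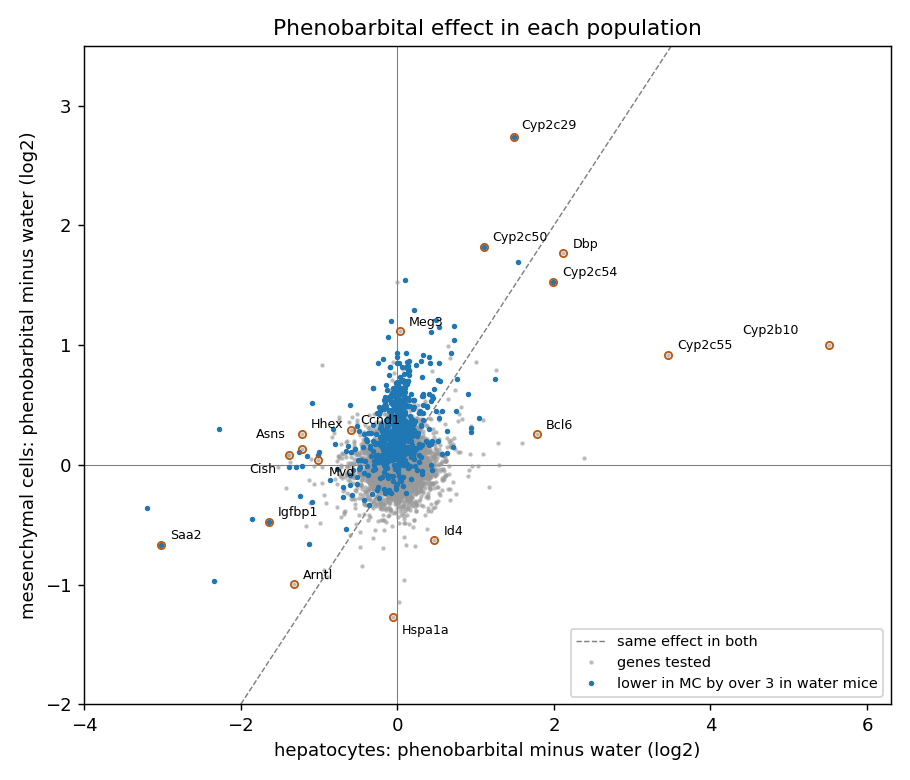
The log2 difference between phenobarbital and water in hepatocytes (horizontal axis) is plotted against that in mesenchymal cells (vertical axis) for 9031 genes. Genes on the dashed line had equal effects, blue points are the 592 genes over 3 log2 units lower in mesenchymal cells of water mice, and open rings are named genes. Cyp2b10 lies far to the right at 5.52 and 1.0, while the blue points spread upwards more than sideways.

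The gene farthest from equal effects was Cyp2b10, the classical CAR target and the main phenobarbital-induced P450 of mouse liver. Its hepatocyte arrays read 7.80, 8.01 and 7.72 with water and 13.06, 14.15 and 12.87 with phenobarbital. Its mesenchymal arrays read 7.18, 7.40 and 7.19 with water and 9.39, 7.82 and 7.57 with phenobarbital. Treated arrays lay above water arrays in both populations, without overlap, and every treated hepatocyte array lay above every treated mesenchymal array. On its brightest probe set, Cyp2b10 rose 45.8-fold in hepatocytes (5.52, SE 0.43, adjusted p 0.000457 in limma). Its ratio in mesenchymal cells on that probe set was 2.01-fold (1.0, SE 0.43, adjusted p 0.999 in limma). The difference of effects was 4.51 (SE 0.60, 95% interval 3.18 to 5.84, adjusted p 0.108 in limma). In water mice the populations differed by −0.59 for this gene, a smaller gap than for the Cyp2c genes below.

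The call for Cyp2b10 turned on 1 array. Without treated mesenchymal array 1, the highest of its group, the difference was 5.08 (SE 0.40) with an adjusted p of 0.00117 in limma, past the threshold. Leaving out any other single array kept it between 4.12 and 4.76 and short of the threshold. The other 2 probe sets of the gene gave 4.54 and 4.32. Their terms were larger in both populations, at 7.15 and 6.79 in hepatocytes and 2.60 and 2.47 in mesenchymal cells. Their spread among the treated mesenchymal arrays was wider, with readings of 9.29, 7.63 and 6.06 on the first and 8.65, 6.85 and 5.77 on the second.

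Cyp2c55, another P450 induced through CAR, came next in size among genes with the higher change in hepatocytes. Its hepatocyte arrays went from 8.05, 7.50 and 7.57 with water to 10.73, 11.97 and 10.80 with phenobarbital. Its mesenchymal arrays read 4.78, 5.03 and 4.89 with water and 7.07, 5.44 and 4.96 with phenobarbital. The groups did not overlap in hepatocytes but did in mesenchymal cells, where array 1 stood apart. The ratios were 11-fold and 1.89-fold, and the difference was 2.54 (SE 0.67, adjusted p 0.870 in limma), or 3.16 (adjusted p 0.131) without treated mesenchymal array 1. The mesenchymal water level lay below the 40th percentile of its arrays (6.54 to 6.68 over the 12 arrays), where RMA compresses changes.

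The neighbouring Cyp2c genes had differences of either sign, smaller than that of Cyp2c55. Cyp2c29 had water arrays of 12.06, 12.09 and 12.49 in hepatocytes against treated arrays of 13.63, 13.77 and 13.72. In mesenchymal cells it had 6.63, 7.44 and 7.51 with water and 11.58, 9.51 and 8.72 with phenobarbital, again without overlap. Its ratios were 2.81-fold in hepatocytes and 6.69-fold in mesenchymal cells, and the difference was −1.25 (SE 0.78, adjusted p 0.929 in limma), or −0.43 without treated mesenchymal array 1. Cyp2c54 differed by 0.46 (SE 0.74), Cyp2c37 by −0.15 (SE 1.0) and Cyp2c50 by −0.72 (SE 0.83), and without that array by 1.17, 0.80 and 0.09. For these genes the interval of the difference reaches from below −1 to above 2 for Cyp2c54 (−1.16 to 2.09) and Cyp2c37 (−2.35 to 2.05), so equal effects are not shown.

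**Figure D2:**
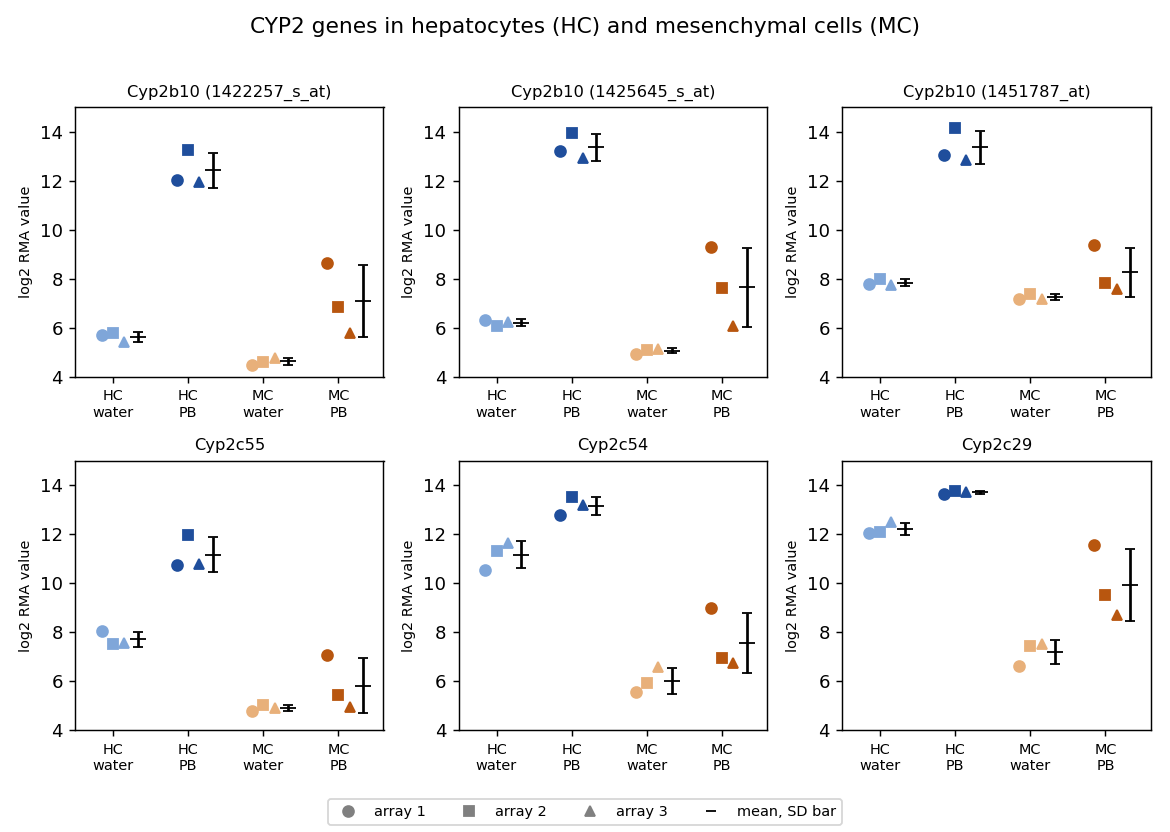
Log2 RMA values of the 3 Cyp2b10 probe sets, Cyp2c55, Cyp2c54 and Cyp2c29 on each of the 12 arrays, by population (HC, hepatocytes, and MC, mesenchymal cells) and treatment (PB, phenobarbital). Symbols mark the array number and black bars the mean ± SD (n = 3). Treated mesenchymal array 1 is the highest of its group in all panels.

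The wider list of CAR and PXR induced P450 genes and partners had 14 tested members of 24, and 3 of them had a positive difference, against 4259 of all 9031 genes (47.2%). The list median was −0.38, from medians of 0.24 in hepatocytes and 0.81 in mesenchymal cells. At an unadjusted p under 0.05 it held Cyp2b10 and Cyp2c55, both higher, and none lower. The list median was 0.09 without treated mesenchymal array 1 and −0.89 without treated mesenchymal array 3. Cyp3a11, the main PXR-driven P450, stood at 14.54 ± 0.04 and 14.62 ± 0.03 (SD, n = 3) in hepatocytes, near the top of the scale, and its difference was −0.27 (SE 0.77). Alas1, the first enzyme of haem synthesis, differed by −0.52 (SE 0.35), and the receptors themselves by −0.33 (SE 0.52) for Nr1i3 and −0.27 (SE 0.21) for Nr1i2, the gene of PXR.

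The list of conjugating and hydrolysing enzymes, which act in the later phases of drug handling, had 15 of 25 tested members positive and a median difference of 0.05, with medians of 0.34 in hepatocytes and 0.43 in mesenchymal cells and none at an unadjusted p under 0.05. The list median was 0.24 without treated mesenchymal array 1 and −0.22 without treated mesenchymal array 3. Gstm2, a glutathione transferase, had the widest positive value, 0.55 (SE 0.47), which was 0.07 without treated hepatocyte array 2. Among 14 hepatic transporters 11 had a negative difference and the median was −0.23, or 0.11 without treated mesenchymal array 1. Slc22a7, an organic anion transporter, differed by −1.09 (SE 0.29, adjusted p 0.870 in limma), from mesenchymal arrays of 5.39, 5.75 and 5.12 with water and 6.18, 6.63 and 6.0 with phenobarbital. All of these mesenchymal values but 1 lay under the percentile range given above. Abcb1a, a drug efflux pump, differed by 0.84 (SE 0.36, adjusted p 0.897), with hepatocyte arrays of 5.38, 6.50 and 6.35 against 7.11, 7.13 and 6.79. Water array 1 was the low one, and without it the difference was 0.49.

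Levels of hepatocyte RNA in the mesenchymal arrays moved with these results. The 15 hepatocyte markers had a mean of 9.46, 10.51 and 10.34 in the mesenchymal arrays of water mice and of 11.36, 10.18 and 9.98 in those of phenobarbital mice. Treated array 1 was the highest, water array 1 the lowest, and the groups overlapped. The group means were 10.10 ± 0.57 and 10.51 ± 0.75 (SD, n = 3), a difference of 0.41 with a p of 0.6 in a two-sided exact permutation test, in which 3 against 3 arrays cannot go below 0.1. In hepatocytes the same mean went from 14.11 to 14.07. All 15 markers had a negative difference of effects, with a median of −0.46, which came from the mesenchymal term (0.46) and not the hepatocyte term (−0.04).

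On the linear scale the markers of a mesenchymal array amounted, as a median, to 3.99%, 6.15% and 4.97% of their mean in water hepatocytes. In the treated arrays they amounted to 11.5%, 5.53% and 4.25% of their mean in treated hepatocytes. Cyp2b10 of the treated mesenchymal arrays stood at 5.88%, 1.98% and 1.67% of treated hepatocytes, below the marker share on each array. In the water mesenchymal arrays, however, the brightest probe set of Cyp2b10 stood at 63.0%, 73.1% and 63.4% of water hepatocytes. The other probe sets stood at 41.3%, 46.3% and 46.9%, and at 44.9%, 49.2% and 54.7%. All of these shares lay above the marker share of their array. The other probe sets read 6.33 or less in all water arrays, under the percentile range given above, where RMA compresses changes. The brightest one read 7.18 to 8.01 there, a little above that range. How far such low levels bear on the shares was not tested. In the treated arrays Cyp2c29 stood at 22.9%, 5.46% and 3.15%, above the marker share on array 1, and Cyp2c50 at 11.9%, 3.10% and 1.59%. The part of hepatocyte RNA in these differences was not tested, beyond the values without array 1 and those with the marker mean as a covariate, an alternative chosen after seeing the data. With that covariate Cyp2b10 differed by 4.88 (adjusted p 0.00605 in limma) and Cyp2c29 by −0.62.

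The same tilt ran through hepatocyte-enriched genes at large. These were chosen by the water arrays, which enter the difference with the same sign, so the choice itself favours negative values. Of the 592 genes over 3 log2 units lower in mesenchymal cells of water mice, 15% had a positive difference and the median was −0.31. Without treated mesenchymal array 1, 46.8% were positive and the median was −0.03. The 5210 genes within 1 log2 unit between the populations had 50.1% positive with all arrays and 47.8% without that array. For lists of hepatocyte genes the median without it is given below as well.

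**Figure D3:**
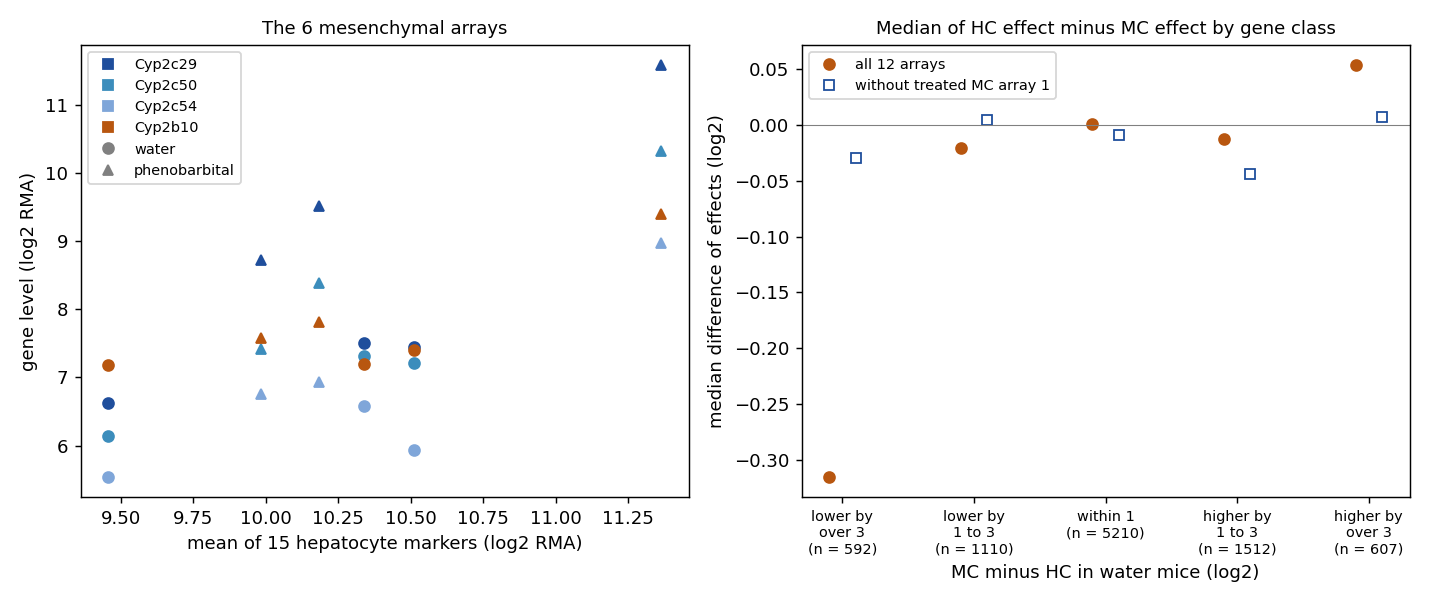
Left, log2 RMA levels of Cyp2c29, Cyp2c50, Cyp2c54 and Cyp2b10 on the 6 mesenchymal arrays against the mean of 15 hepatocyte markers on the same array (circles, water, and triangles, phenobarbital). Right, the median difference of effects in 5 classes of genes by their level in mesenchymal cells against hepatocytes of water mice, with all 12 arrays (filled circles) and without treated mesenchymal array 1 (open squares). The class lower by over 3 sits at −0.31 with all arrays and at −0.03 without the array.

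Cholesterol synthesis had the most members with an unadjusted p under 0.05, on the side of a lower change in hepatocytes. The pathway turns acetyl units into mevalonate, squalene and then sterols, and its genes are driven together by SREBP2, which binds sterol elements near promoters alongside the CCAAT-binding factor NF-Y. In the list, 18 of 19 tested genes had a negative difference, 7 of them at an unadjusted p under 0.05 (2.95% of all genes tested were lower at that level), and none passed after adjustment. The list median was −0.44, from −0.51 in hepatocytes and −0.01 in mesenchymal cells, and −0.32 without treated mesenchymal array 1. The 7 genes were Hmgcs1, Mvk, Pmvk, Mvd, Fdft1, Nsdhl and Dhcr7, which act from the entry of the pathway to its last step. For 4 of them the RefSeq table (GRCm38.p6) held a single start. The 200 bases before that start are printed to show the CCAAT boxes that these promoters share, with CCAAT on either strand and the sterol element TCACNCCAC on either strand in capitals.
Hmgcs1 (chr13:119690151-119690350, + strand): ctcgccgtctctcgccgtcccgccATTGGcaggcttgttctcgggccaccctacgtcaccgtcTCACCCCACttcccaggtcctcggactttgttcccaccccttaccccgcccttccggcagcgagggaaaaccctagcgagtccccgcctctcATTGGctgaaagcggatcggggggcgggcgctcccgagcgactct
Mvk (chr5:114444069-114444268, + strand): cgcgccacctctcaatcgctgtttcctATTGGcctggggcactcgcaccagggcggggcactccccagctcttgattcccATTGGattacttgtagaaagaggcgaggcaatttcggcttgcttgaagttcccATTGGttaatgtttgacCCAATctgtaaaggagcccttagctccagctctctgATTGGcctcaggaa
Mvd (chr8:122443423-122443622, − strand): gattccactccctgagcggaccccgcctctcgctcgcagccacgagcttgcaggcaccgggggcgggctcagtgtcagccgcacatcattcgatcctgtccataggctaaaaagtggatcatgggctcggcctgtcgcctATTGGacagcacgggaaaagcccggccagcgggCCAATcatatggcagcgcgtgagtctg
Nsdhl (chrX:72918321-72918520, + strand): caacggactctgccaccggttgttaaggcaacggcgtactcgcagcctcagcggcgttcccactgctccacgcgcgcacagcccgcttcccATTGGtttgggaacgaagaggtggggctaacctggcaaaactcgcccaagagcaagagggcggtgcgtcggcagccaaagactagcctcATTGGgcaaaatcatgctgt
These windows hold 2, 5, 2 and 2 CCAAT matches, and the window of Hmgcs1 holds 1 match to the sterol element. Over the 15 list genes with an entry, CCAAT was found in 15 genes and 15 of 18 windows, against 29.3% of the 32851 windows of the table. The sterol element was found in 1 of the 15 genes and 1 of 18 windows, against 0.858% of all windows. The other 3 genes had more than 1 start (2 genes) or are named only (Fdft1), and a match is a description of the letters.

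Mvd, which makes isopentenyl diphosphate from mevalonate diphosphate and whose window carries CCAAT on both strands, had hepatocyte arrays of 8.90, 8.52 and 8.34 with water and 7.62, 7.68 and 7.42 with phenobarbital. Its mesenchymal arrays read 7.04, 6.60 and 6.86 with water and 6.89, 7.0 and 6.73 with phenobarbital. The hepatocyte groups did not overlap and the mesenchymal groups did. The difference was −1.06 (SE 0.22, adjusted p 0.743 in limma), and −1.02 on the other probe set of the gene. Fdft1, squalene synthase, had hepatocyte arrays of 11.71, 11.76 and 11.68 against 11.04, 11.16 and 11.07, and mesenchymal arrays of 7.51, 7.65 and 7.30 against 7.92, 7.62 and 7.40. Its difference was −0.79 (SE 0.18, adjusted p 0.743), but the other 3 probe sets of Fdft1 gave −0.45, −0.13 and 0.18. Hmgcs1, the HMG-CoA synthase at the entry, differed by −0.68 (SE 0.24), with terms of −0.80 and −0.12. Dhcr7, the last reductase of the pathway, differed by −0.54 (SE 0.13), with terms of −0.51 and 0.04. Idi1 and Cyp51 differed by −0.33 and −0.35, with mesenchymal terms of −0.25 and −0.16. Stard4, a sterol carrier, was the single positive member at 0.17.

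Other lipid genes had list medians nearer to 0 or positive. Fatty acid and triglyceride synthesis had 4 of 14 positive with a median of −0.24, or −0.0040 without treated mesenchymal array 1. Fatty acid oxidation and PPARA targets had 12 of 20 positive and a median of 0.07, or 0.16 without that array and 0.21 without treated hepatocyte array 3. No member of either list was at an unadjusted p under 0.05.

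Ccnd1, cyclin D1, which drives cells from rest into the division cycle, had the smallest p on the negative side. Its hepatocyte arrays read 8.36, 8.51 and 8.78 with water and 7.84, 7.98 and 8.05 with phenobarbital. Its mesenchymal arrays read 10.90, 10.78 and 10.96 with water and 11.25, 11.07 and 11.21 with phenobarbital. Treated arrays lay below water arrays in hepatocytes and above them in mesenchymal cells, without overlap in either. The terms were −0.59 (SE 0.11) and 0.29 (SE 0.11), and the difference was −0.88 (SE 0.15, 95% interval −1.22 to −0.55, adjusted p 0.571 in limma). Its other probe sets gave −1.51 and −0.41. When arrays were weighted by their fit to the model, Ccnd1 passed at −1.03 (adjusted p 0.0429 in limma), as did Cyp2b10. In that fit water mesenchymal array 2 had a weight of 6.34, against 0.36 and 0.96 for arrays 1 and 3. The water mesenchymal level thus rested mostly on 1 array.

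Growth hormone and STAT5 genes held values of both signs. Cish, a feedback inhibitor that STAT5 induces, had hepatocyte arrays of 9.68, 9.34 and 8.57 against 7.85, 7.60 and 7.97, and mesenchymal arrays of 7.71, 8.11 and 8.34 against 8.16, 7.97 and 8.28. Only in hepatocytes were its groups apart, and the difference was −1.47 (SE 0.35, adjusted p 0.743 in limma). Onecut1, a growth hormone responsive transcription factor of hepatocytes, differed by −1.23 (SE 0.32), with terms of −1.16 and 0.07, and by −1.36 on its other probe set. Bcl6, a repressor that STAT5 signalling lowers in liver, went the other way. Its hepatocyte arrays were 9.31, 7.65 and 8.38 with water and 10.07, 10.39 and 10.24 with phenobarbital, its mesenchymal arrays 8.30, 8.02 and 7.93 and then 8.38, 8.35 and 8.29. The difference of Bcl6 was 1.52 (SE 0.44, adjusted p 0.870), and 1.07 on its other probe set. In all 14 of 15 list members had a negative difference, with Bcl6 the exception, and the median was −0.36, or −0.15 without treated mesenchymal array 1.

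Of the growth and stress genes tied to CAR, Myc, a driver of growth, differed by −1.01 (SE 0.42, adjusted p 0.889 in limma). Its hepatocyte arrays read 9.0, 7.91 and 8.0 with water and 6.91, 7.23 and 7.37 with phenobarbital, and its mesenchymal arrays read 9.67, 8.80 and 8.72 and then 8.88, 8.95 and 8.98. Water array 1 was the high one in both populations, and without that of hepatocytes the difference was −0.66. Gadd45b, a stress gene induced by CAR, differed by 0.15 (SE 0.33). The list of 17 such genes had a median of −0.01. Tgfa, a ligand of the EGF receptor, and Egfr, that receptor, differed by −0.73 (SE 0.22) and −0.70 (SE 0.25), while Hbegf, another ligand, differed by 0.61 (SE 0.25). The other 2 probe sets of Tgfa gave 0.03 and 0.28, against its sign, and those of Egfr ran from −0.95 to −0.02. The 19 cell cycle genes had 5 positive and a median of −0.24, which was −0.09 without treated mesenchymal array 1. Among them, Cdc20 differed by −0.60 (SE 0.20), and by −0.81 and 0.02 on its other probe sets.

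The remaining genes with the smallest p on the negative side had varied roles. Smox, spermine oxidase, differed by −1.11 (SE 0.21, adjusted p 0.690 in limma), with terms of −0.82 and 0.30. Hhex, a homeobox factor of liver and endothelium, differed by −1.48 (SE 0.34), from hepatocyte arrays of 12.02, 11.03 and 11.10 against 9.99, 9.94 and 10.57 and mesenchymal arrays of 9.84, 10.04 and 9.83 against 10.18, 10.29 and 10.02. Asns, asparagine synthetase, differed by −1.34 (SE 0.30), Map4k4, a kinase, by −0.98 (SE 0.22) and Coro1c, an actin-binding protein, by −0.60 (SE 0.13). In these 3 genes the hepatocyte groups did not overlap. The other probe sets of Map4k4 gave −0.52, −0.15 and −0.08 and those of Coro1c gave −0.46, −0.27 and 0.04, all narrower, while the other one of Asns gave −1.90. Chac1, which like Asns is an ATF4 target, differed by −0.65 (SE 0.21), yet the 23 ATF4 and chaperone genes had a median of −0.06. The widest negative difference of all genes tested was that of Moxd1, a monooxygenase named after its values were seen. It stood at −2.83 (SE 1.02), from hepatocyte means of 10.15 ± 0.33 with water and 6.96 ± 1.99 with phenobarbital (SD, n = 3). Without treated hepatocyte array 3 it was −3.98 with an adjusted p of 0.00159 in limma, the 1 gene that passed in that setting.

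On the positive side, the other genes with the smallest p had terms under 1 in both populations. Id4, an inhibitor of basic helix-loop-helix factors, had mesenchymal arrays of 8.52, 9.02 and 8.80 with water and 7.99, 8.14 and 8.33 with phenobarbital, and its hepatocyte arrays were at most 6.45. Its difference was 1.10 (SE 0.26, adjusted p 0.743 in limma), and 0.94 and 0.52 on its other probe sets. Stx3, a syntaxin of membrane fusion, differed by 0.78 (SE 0.17), with a mesenchymal term of −0.42, and by 0.90 and 0.14 on its other probe sets. Mettl18 (0.61), Plekhf2 (0.59), LOC664787 (0.52), Tas1r3 (0.48) and Adprm (0.45) had smaller values, each with an adjusted p of 0.743 in limma, and Plekhf2 had 0.29 on its other probe set. Nqo1, a quinone reductase and NRF2 target, differed by 0.63 (SE 0.18), while the 12 NRF2 targets had a median of 0.02.

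**Figure D4:**
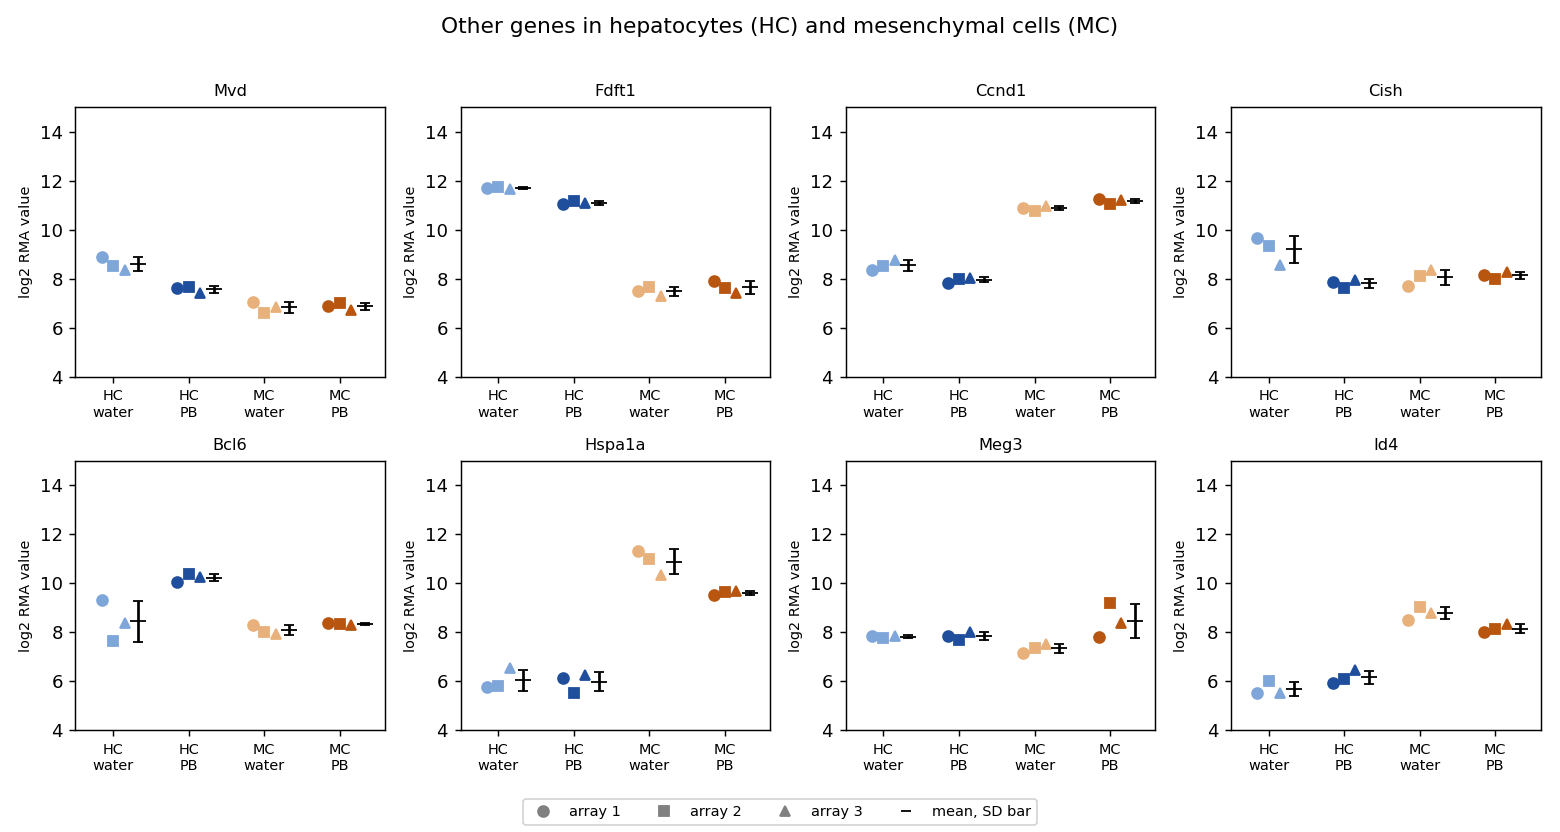
Log2 RMA values of Mvd, Fdft1, Ccnd1, Cish, Bcl6, Hspa1a, Meg3 and Id4 on each of the 12 arrays, by population and treatment, with symbols for the array number and black bars for the mean ± SD (n = 3). Mvd, Fdft1, Ccnd1 and Cish have lower treated hepatocyte arrays, while Hspa1a, Meg3 and Id4 are apart in the mesenchymal arrays.

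Hepatocyte genes of zonal function and of the plasma proteome tilted to the negative side, by different terms. Pericentral genes driven by Wnt signalling had 9 of 11 negative and a median of −0.61, or −0.50 without treated mesenchymal array 1. Oat, ornithine aminotransferase, differed by −1.23 (SE 0.49), from hepatocyte arrays of 11.41, 12.13 and 12.48 against 9.71, 11.26 and 10.78, and by −0.79 without treated hepatocyte array 1. Slc1a2, a glutamate transporter, differed by −1.15 (SE 0.36) and Notum, a Wnt inhibitor, by −0.72 (SE 0.24), with mesenchymal terms of 0.05 and 0.00. These 3 genes were at an unadjusted p under 0.05 and their treated hepatocyte arrays all lay below the water arrays. Periportal and urea cycle genes had a median of −0.42 that came from the mesenchymal term (0.46) rather than the hepatocyte term (0.05), and without treated mesenchymal array 1 it was 0.06.

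Acute phase proteins, which hepatocytes secrete under inflammation, had 23 of 24 negative, a median of −0.66 and terms of −0.27 and 0.21. The median was −0.57 without treated mesenchymal array 1, and −0.38 without treated mesenchymal array 2. Saa2, a serum amyloid, had hepatocyte arrays of 13.02, 13.78 and 12.83 with water and 8.93, 9.34 and 12.31 with phenobarbital, and mesenchymal arrays of 7.73, 9.28 and 7.88 and then 5.82, 9.94 and 7.13. The spread within the treated groups was wide, and the difference was −2.35 (SE 1.46), or −1.20 without treated mesenchymal array 2 and −3.41 without treated hepatocyte array 3. Neutrophil markers, over 6 genes, had means of 7.67, 7.04 and 6.61 in the water mesenchymal arrays and 6.43, 8.86 and 6.81 in the treated ones, with array 2 the highest. Their part in the acute phase values was not tested. Itih3 and Itih4, inter-alpha-trypsin inhibitor heavy chains, differed by −1.10 (SE 0.49) and −0.95 (SE 0.38), the 2 members at an unadjusted p under 0.05. Without treated mesenchymal array 2 the value of Itih3 was −0.72. Bile acid genes had 13 of 14 negative with a median of −0.40, or −0.15 without treated mesenchymal array 1. Nr5a2, a receptor that activates bile acid genes, differed by −0.58 (SE 0.22), with a mesenchymal term of 0.56, and by −0.33 to −0.29 on its other 3 probe sets. Cyp7a1, the rate-limiting enzyme, differed by −1.12, with a hepatocyte term of −0.82. Gluconeogenic and insulin-sensitive genes had a median of −0.24, or −0.02 without that array. Igfbp1, an insulin-repressed binding protein, had a difference of −1.17 (SE 0.55) with hepatocyte arrays of 12.89, 11.98 and 12.21 against 11.10, 10.48 and 10.59.

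Some lists had terms that were alike in both populations. Circadian clock genes had medians of 0.30 and 0.29 and a median difference of −0.06. Dbp, a clock output factor, read 6.21, 11.87 and 11.60 in water hepatocytes and 6.52, 11.80 and 11.86 in water mesenchymal cells, and every treated array lay between 11.65 and 12.15. Arntl, the clock activator BMAL1, read 9.57, 5.73 and 6.20 in water hepatocytes and 9.36, 7.31 and 6.84 in water mesenchymal cells. Water array 1 of both populations thus stood apart on the same side. The differences were 0.35 (SE 2.18) for Dbp and −0.32 (SE 1.23) for Arntl, and without water array 1 of mesenchymal cells alone the clock list median was 0.55. Immediate early genes had terms of −0.39 and −0.34 and a median difference of −0.05, which ran from −0.31 without water mesenchymal array 1 to 0.13 without water mesenchymal array 2. Of its 22 members, Klf4, a zinc-finger factor, was higher at 0.82 (SE 0.34; 0.51 without water mesenchymal array 1) and Myc lower at an unadjusted p under 0.05.

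Type I interferon genes had positive terms in 21 of 21 members in hepatocytes and 20 of 21 in mesenchymal cells, with medians of 0.30 and 0.19. The median difference was 0.20, with 13 of 21 positive, and it was −0.0011 without treated hepatocyte array 2, so its sign rested on that array. Gbp3, an interferon-induced GTPase, had the widest difference, 1.30 (SE 0.43, adjusted p 0.870 in limma), from hepatocyte arrays of 6.77, 6.54 and 6.79 against 7.59, 8.93 and 7.47 and mesenchymal arrays of 11.46, 11.14 and 11.18 against 11.06, 11.38 and 11.32. Treated hepatocyte array 2 was the high one, and without it the difference of Gbp3 was 0.83. Ifit3 differed by 0.41 (SE 0.25), or 0.17 without the same array, with terms of 0.77 and 0.37 and no overlap of groups in either population.

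Genes led by the mesenchymal term were fewer. Hspa1a, an inducible heat shock protein, had mesenchymal arrays of 11.32, 10.98 and 10.34 with water and 9.51, 9.64 and 9.66 with phenobarbital. Its hepatocyte arrays lay between 5.53 and 6.54, at or under the 40th percentile, where a change can be compressed. The difference was 1.21 (SE 0.39, adjusted p 0.870 in limma). Hspa1b, its near-identical neighbour with which probes can share signal, differed by 0.40 (SE 0.27), with terms of −0.45 and −0.85, and the 11 heat shock genes had a median of 0.11, or −0.19 without water mesenchymal array 1 and 0.27 without water mesenchymal array 3. Meg3, a long noncoding RNA, had mesenchymal arrays of 7.14, 7.36 and 7.52 with water and 7.81, 9.19 and 8.36 with phenobarbital, against hepatocyte arrays of 7.86, 7.75 and 7.83 and then 7.84, 7.68 and 8.0. The difference was −1.09 (SE 0.37, adjusted p 0.870), but its other 4 probe sets gave −0.43, −0.22, 0.13 and 0.27, and without treated mesenchymal array 2 it was −0.72. The high array was treated mesenchymal array 2, and the part of hepatocyte RNA in the Meg3 value was not tested.

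Of the matrix genes, Col4a2 and Col4a1, chains of basement membrane collagen, differed by −0.80 (SE 0.25) and −0.68 (SE 0.20), with mesenchymal terms of 0.09 and 0.14, and fibronectin (Fn1) by −0.49 (SE 0.18). The hepatocyte arrays of Col4a1 lay at 6.90, 6.83 and 6.35 against 6.18, 5.94 and 6.35, close to or under the 40th percentile. The list of 16 matrix genes had a median of −0.16. Inflammatory cytokines and chemokines had a median of 0.14 (−0.02 without water mesenchymal array 1) with none of 19 at an unadjusted p under 0.05, and haem and iron genes one of −0.06 with none of 18. The 19 nuclear receptors and liver factors had a median of −0.20. Macrophage and sinusoidal endothelial markers, which define the mesenchymal arrays, had medians of −0.04 and −0.10. The stellate cell and fibroblast markers had a negative difference in 9 of 9 tested genes, with a median of −0.33 and terms of −0.05 and 0.27. Their mean over 13 genes ran from 7.56 to 8.05 in the water mesenchymal arrays and from 7.82 to 8.24 in the treated ones, and their part in the values of the matrix genes was not tested.

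**Figure D5:**
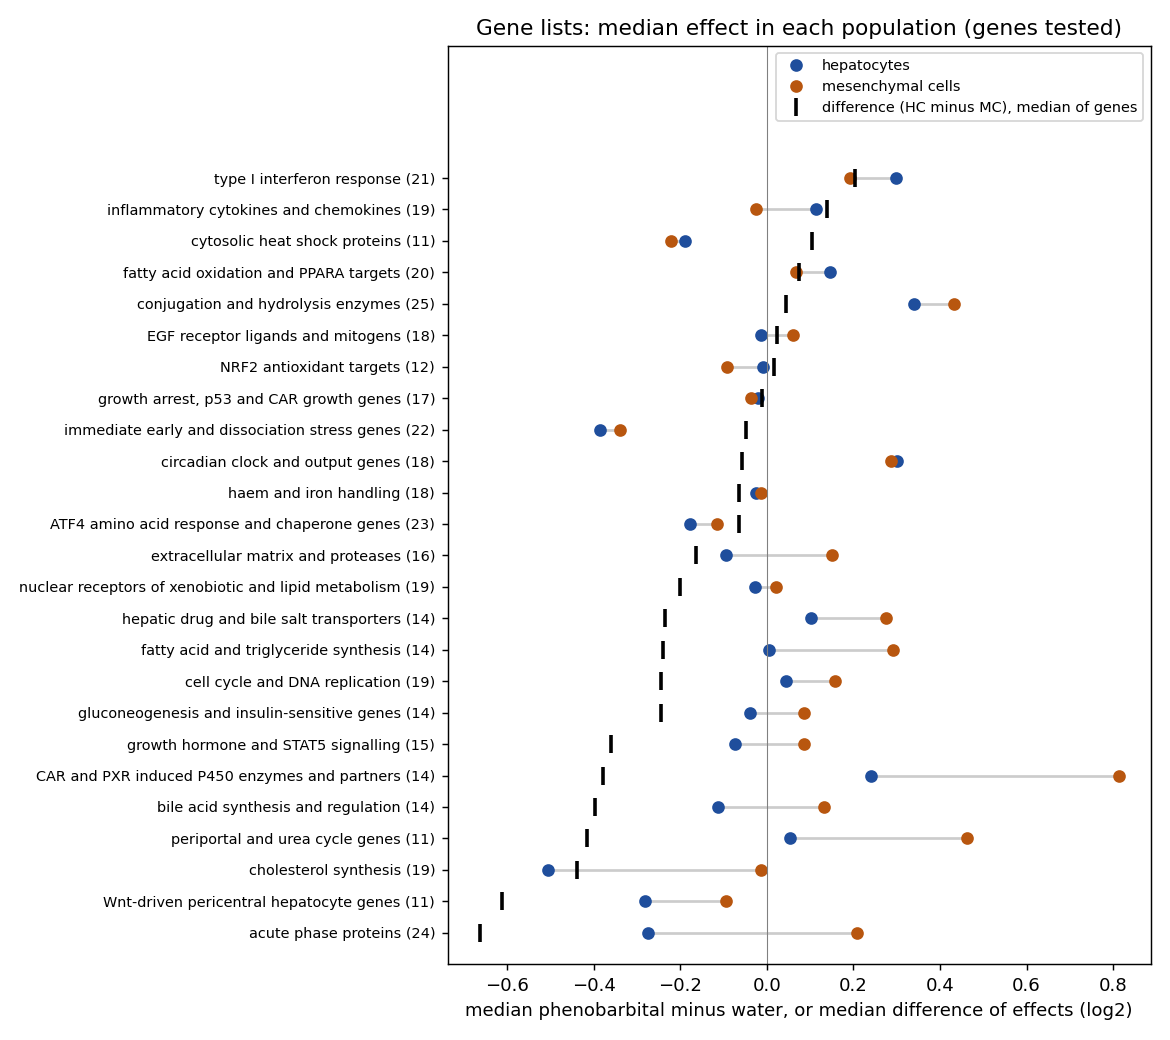
Median log2 difference between phenobarbital and water over the tested members of each of 25 gene lists, in hepatocytes (blue) and mesenchymal cells (orange), with the median difference of effects as a black tick and the number of tested members in brackets. Acute phase, pericentral and cholesterol genes lie lowest, at −0.66, −0.61 and −0.44, and clock and immediate early genes have nearly equal terms.

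The average of both effects gives the complement of the difference. In limma, 1 gene of 9031 passed (0.0111%), again Cyp2b10, at 3.26 (SE 0.30, adjusted p 0.0029). The genes that followed by p did not pass, among them Cyp2c55 at 2.19, Cyp2c29 at 2.12, Bcl6 at 1.02 and Ifit3 at 0.57. At an unadjusted p under 0.05 there were 568 genes (6.29%), against 492 for the difference.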

How the data were processed

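RNA from each sample was labelled with a 3′ amplification kit for an Affymetrix array of its own, per the labels. The deposited values are log2 expression of 22626 probe sets. The submitters' processing notes name RMA, which corrects background, makes the arrays' distributions alike and summarises probes, so each difference is relative to most other genes. Its version and any scan dates were not given in the sources used here. Groups and array numbers came from the labels. Platform annotation gave 1 gene symbol to 20380 probe sets, several to 691 and none to 1555, and 20351 were matched to RefSeq. Each of 12393 genes was represented by its brightest probe set (4956 had several), and 9031 lay above the array's 40th percentile in at least 3 arrays and were tested.

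One limma 3.58.1 model (R 4.3.3, lmFit and eBayes with an intensity trend) held the 4 groups of 3 arrays. The difference of effects, each effect, their average and the difference between populations in water mice were its contrasts, at a Benjamini-Hochberg adjusted p under 0.05. The model was run on simulated data with known differences, with noise drawn independently for each gene and array. Shifts shared by many genes of an array were not simulated, so that run does not bear on them. The number of arrays limits the precision. Intervals are at 95%.

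The genes, the 25 lists and the marker lists were chosen with earlier results of these data known. Named genes were up to 12 of each sign that passed, or the 8 with the smallest p where fewer passed, up to 3 members of each list by p, and a fixed set of genes tied to phenobarbital response, 96 in all. Genes outside these 96 were list members named after their values were seen, apart from Moxd1, which was in no list. Lists are described by counts and medians. Arrays of a group correlated at r of 0.989 to 0.996, and no 2 were alike (smallest median absolute difference 0.107). Deviations from the group means showed that same-numbered hepatocyte and mesenchymal arrays of water mice moved together (r of 0.226, 0.213 and 0.178, each highest with its own number), while those of treated mice did not (0.072, −0.062 and 0.014). Between water and treated mesenchymal arrays, which come from different mice, r ran from −0.358 to 0.313. Values of this size therefore do not show by themselves that arrays were paired. The highest r between treated hepatocyte and treated mesenchymal arrays was 0.161, for hepatocyte array 3 and mesenchymal array 2. No block that was tried joined that pair. The model above had no block. Batches were not tested. Alternatives changed the filter, scaling, probe set rule, variance model, block and arrays left out.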

Additional observations from a re-analysis of the deposited data

How the results depend on the processing

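The difference of effects gave 0 genes with the other filters, scalings, probe set rules and variance models apart from the following. It gave 2 genes with array weights (Cyp2b10 and Ccnd1) and 1 with the hepatocyte marker level of the mesenchymal arrays as a covariate (Cyp2b10). The array weights ran from 0.36 to 6.34, both on water mesenchymal arrays. Leaving out single arrays gave 0 to 1 genes, with 1 without treated hepatocyte array 3 (Moxd1) and 1 without treated mesenchymal array 1 (Cyp2b10). Cyp2b10 stayed between 4.12 and 5.08 when single arrays were left out, with adjusted p in limma from 0.00117 to 0.752 over all settings, the highest with the mean of its probe sets, at 4.46. The covariate and the test of each probe set on its own (0 of 15432 for the difference) were chosen after seeing the data.

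The hepatocyte effect gave 1 gene, but 3 with the probe set of largest variance, 4 with array weights, 2 without water array 1 of both populations and 2 with the covariate. With each probe set on its own it gave 13 probe sets, not 13 genes. Cyp2b10 and Hmgcs1 each had more than 1 of them, and some had no single gene symbol. Leaving out single arrays gave 1 to 7 genes. The mesenchymal effect gave 0 genes except 1 with the covariate, Cyp2c29 at 2.11 (adjusted p 0.0264 in limma), and 0 to 0 without single arrays. The average effect gave 1 gene, but 4 with array weights, 2 without water array 1 of both populations and 3 with the covariate, and 1 to 3 without single arrays. With each probe set on its own it gave 3 probe sets, all of Cyp2b10. The cause of these shifts was not tested.

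Same-numbered hepatocyte and mesenchymal arrays moved together in water mice but not in treated mice, which does not establish that they were paired. With the replicate block on the number across groups the difference gave 0 genes (Cyp2b10 adjusted p 0.274), with the block within treatment 0 (0.433), and with a random block 0 (0.0783, estimated correlation 0.0888). With the replicate block across groups the hepatocyte effect and the average effect each gave 1 gene and the mesenchymal effect 0. The population difference gave 7449, against 7470 without that block. This block joined arrays of water mice with arrays of treated mice, so it cannot show what pairing by mouse would do. The random block joined the same number within treatment. With it the hepatocyte and average effects each gave 1 gene, the mesenchymal effect 0 and the population difference 7565. With the block within treatment, the difference was the only contrast that could be estimated. Of 96 named genes, 86 kept the sign of the difference in every setting run. The sign changed in some setting for 10, none past the threshold: Arntl, Cpt1a, Cyp2c37, Cyp2c50, Cyp3a11, Dbp, Gadd45b, Nr1i2, Saa1 and Tgfa. The median of 16 of the 25 lists moved by more than 1 SD in some setting. Levels under the 40th percentile limit what can be read of genes expressed in 1 population.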
